A study of Mus musculus with 3 samples.

Results

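YY1 is a zinc-finger transcription factor that binds a short DNA sequence at active promoters and enhancers, can activate or repress genes, and can bring distant stretches of DNA together. In a ChIP-seq experiment a peak caller reports each stretch where sequenced DNA piles up over background as an interval, and a stretch with a gap in it is reported as separate neighbouring intervals. The intervals described here are narrow YY1 calls that lie close to another call in 1 of 2 ChIP samples and were not called in the other. They are the rows of the replicate 2 list on chromosomes 1 to 19 that are at most 200 bp wide, overlap no replicate 1 interval by even 1 bp, and have another replicate 2 interval less than 500 bp away, edge to edge. There were 10884 of them, which is 9.46% of the 115109 replicate 2 intervals and 9.99% of the 108971 on the autosomes. Width, position and overlap chose them, and those values are given as a description; the peak score was not used to choose them.

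The ChIP was made with an anti-YY1 antibody from Santa Cruz on cardiac progenitor cells derived from mouse embryonic stem cells of strain C57BL/6. The cells carried an Nkx2.5 transgene that drives a green fluorescent reporter (eGFP), were differentiated as embryoid bodies to day 6 and were sorted for eGFP. This marks cells in which that transgene is active in culture, and no expression values were used to check their cell type. There were 2 ChIP samples, sorted independently, with 3691 intervals in replicate 1 and 115109 in replicate 2, and 1 input sample, which was not analysed here. Each list stands for 1 sample, so nothing below measures the spread between cultures. The read depth is unknown, and the 95% exact binomial (Clopper-Pearson) intervals given beside shares cover counting error only and are too narrow, since clustered intervals come in groups. Coordinates are those of mm9, counted from 1.

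The rule's own shares put these intervals in context. Of all autosomal replicate 2 intervals, 10.8% had a neighbour less than 500 bp away, and of the 104687 that were narrow and not shared with replicate 1, 10.4% did (10.2 to 10.6%). The other 93803 narrow unshared intervals, called solitary below, had none. A near neighbour was found for 712 of the 3211 autosomal intervals wider than 200 bp (22.2%, 20.8 to 23.7%) and for 121 of the 1073 narrow intervals that overlapped replicate 1 (11.3%, 9.45 to 13.3%). On chromosome X, which the rule leaves out, 257 of 4336 narrow unshared intervals had a near neighbour (5.93%, 5.24 to 6.67%). On the autosomes such shares rose with the density of calls, as given below. Density on chromosome X was not computed, so its share is not compared with the autosomal one. At the limits of the rule, 93 clustered intervals were 191 to 200 bp wide, with a median score of 236, and 79 intervals that failed only on width were 201 to 210 bp wide, with a median score of 294. The nearest gap was 490 to 499 bp for 120 clustered intervals and 500 to 509 bp for 122 intervals just outside, and the median score was 119 in both sets.

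Most clusters were pairs. Chaining every replicate 2 interval to the next one less than 500 bp away gave 5323 groups that held at least 1 clustered narrow interval. Of these, 4616 (86.7%) were pairs, 578 (10.9%) held 3 intervals, 87 (1.63%) held 4 and 42 (0.789%) held 5 or more, up to 15. Pairs contained 8738 of the clustered intervals (80.3%), and the groups of 5 or more contained 232 (2.13%). In 4668 groups (87.7%) every interval met the rule, which only means that the group held no wide or shared interval. Of all 108971 autosomal intervals, 104687 were narrow and unshared and 3211 were wide. An interval wider than 200 bp was present in 548 groups (10.3%) and an interval shared with replicate 1 in 152 (2.86%). Wide intervals were in 401 of the 4616 pairs (8.69%, 7.89 to 9.54%) and in 17 of the 42 groups of 5 or more (40.5%, 25.6 to 56.7%), where there are also more places for one to occur.

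The groups were short and far apart. Their median span was 360 bp (interquartile range 249 to 503 bp), and the longest ran over 2303 bp. Pairs had a median span of 335 bp, groups of 3 of 511 bp, groups of 4 of 728 bp and groups of 5 or more of 1107.5 bp. The called intervals covered a median of 52.3% of the span (31.9 to 75%). Neighbouring groups on a chromosome lay a median of 242884 bp apart, and only 113 of 5304 such distances (2.13%) were under 5000 bp.

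**Figure D1:**
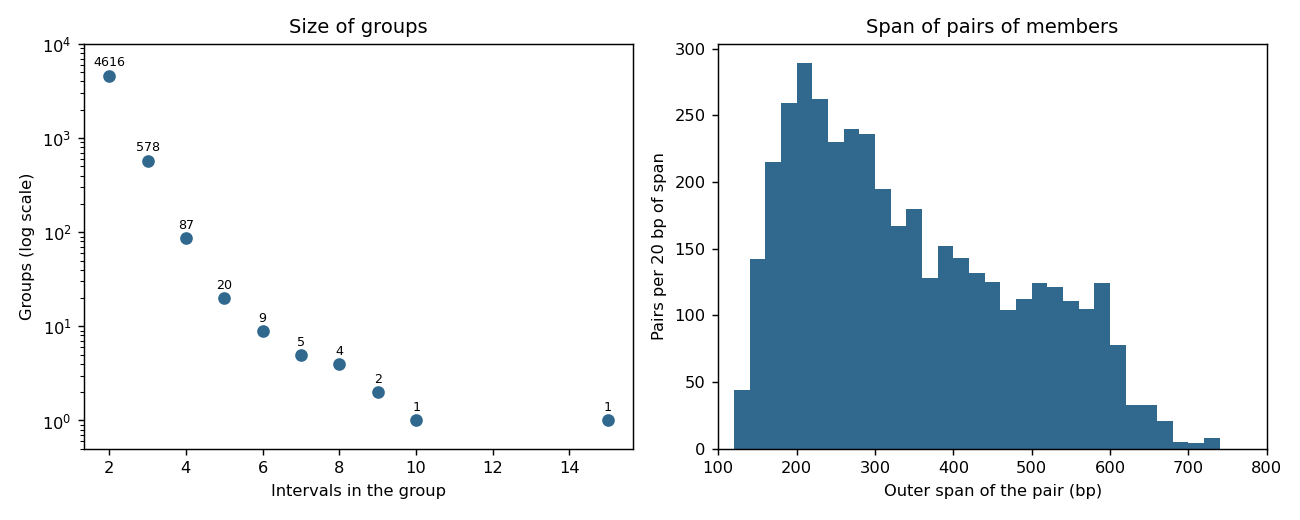
Number of groups by the number of replicate 2 intervals they hold (left, log scale, 1 point per size) and outer span in bp of the pairs in which both intervals met the rule (right, pairs per 20 bp of span). Pairs make up 4616 of the 5323 groups, and the most frequent span of a pair is 200 to 220 bp.

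Within the limit of 500 bp, gaps were concentrated at short distances, which the rule did not fix. Of the 6255 gaps inside groups, 2895 were under 100 bp (46.3%, 45.04 to 47.5%), and the median gap was 117 bp (interquartile range 49 to 279 bp). Midpoints of adjacent intervals lay a median of 220.5 bp apart (145.5 to 362 bp). Counted over adjacent pairs of narrow unshared intervals in steps of 10 bp, gaps were most frequent at 40 to 50 bp, with 385 pairs, against 152 pairs at 0 to 10 bp and 111 at 100 to 110 bp. Per 100 bp of gap there were 2411 pairs under 100 bp, 1056 at 100 to 200 bp, 711 at 200 to 300 bp and 644 at 400 to 500 bp. Beyond the limit the numbers ran from 630 pairs at 500 to 600 bp down slowly, with 525 to 630 per 100 bp up to 2000 bp and 373 to 528 from there to 5000 bp. The count in the shortest class was 4.28 times the mean count per 100 bp between 500 and 2000 bp. The count at 400 to 500 bp lay close to the 630 just past the limit, so the rule takes in pairs from the short-range maximum together with pairs from the level that continues beyond it.

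**Figure D2:**
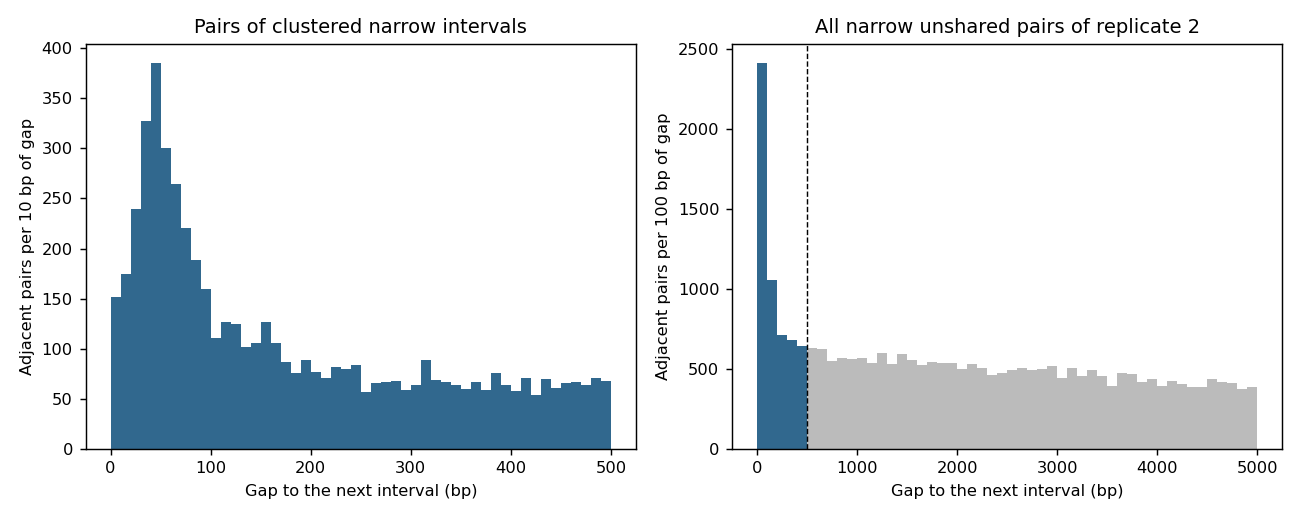
Gaps between adjacent narrow unshared intervals of replicate 2, as pairs per 10 bp of gap up to 500 bp (left) and per 100 bp up to 5000 bp (right). Blue bars are pairs of clustered intervals, grey bars lie beyond the limit of 500 bp (dashed line); the maximum is 385 pairs at 40 to 50 bp.

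Replicate 1, whose own spacing did not enter the rule, had its gaps under 500 bp concentrated below 100 bp too. On its autosomes 170 adjacent intervals were less than 500 bp apart, and 100 of these gaps were under 100 bp (58.8%, 51.03 to 66.3%), with a median gap of 75 bp. At 100 to 200 bp there were 29 such gaps and at 400 to 500 bp there were 8. Of the 1935 narrow replicate 1 intervals that replicate 2 did not overlap, 172 had a neighbour less than 500 bp away (8.89%, 7.66 to 10.3%). In steps of 10 bp the gaps of replicate 1 were most frequent at 10 to 20 bp, with 21 of them. There were 16 at 20 to 30 bp and 15 at 30 to 40 bp. These counts are small and take in intervals of any width, shared or not. The maximum of replicate 2 at 40 to 50 bp is over narrow unshared pairs only, so the 2 distances are not compared. Replicate 1 also has fewer intervals and a larger median autosomal width, 83 bp against 61 bp. What either does to the gaps was not tested.

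Larger groups were more tightly packed. Gaps under 100 bp made up 40.2% (38.8 to 41.7%) of those in pairs, 59.5% (56.6 to 62.4%) of those in groups of 3 and 74.8% (68.5 to 80.3%) of those in groups of 5 or more. The median gap was 145 bp in pairs, 77 bp in groups of 3, 57 bp in groups of 4 and 61 bp in groups of 5 or more. A longer chain needs every one of its gaps to be under the limit, so size and spacing are not separate measures, and the order is a description.

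The group with the most intervals lay on chromosome 17 from 32542638 to 32544746. It held 15 intervals in 2109 bp, all of which met the rule, with widths of 47 to 100 bp and scores of 66.4 to 220.5. Of its 14 gaps, 13 were between 55 and 97 bp and the other was 206 bp, and midpoints were a median of 136 bp apart. One more replicate 2 interval lay 503 bp before the group, just past the limit for chaining, and the nearest replicate 1 interval was 237430 bp away. The next group by size, on chromosome 18 from 6157167 to 6158836, held 10 intervals in 1670 bp and was less even, with gaps of 18 to 400 bp. Its scores were low, from 54.8 to 133, with a median of 63.8, close to the lowest scores in the list.

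Among the other 10 groups with the most intervals, some were made of members alone and others also held a wide or shared interval, in some cases at the edge of the group. The group of 9 on chromosome 5 from 144370445 to 144372422 had only narrow members, with scores of 61.8 to 262. So had a group of 7 on chromosome 14 (21238232 to 21239444) and another group of 7 on chromosome 5 (28424921 to 28426174). Single wide intervals were part of the groups on chromosome 9 from 32161831 to 32164133 (9 intervals, the widest 517 bp) and from 100957911 to 100959415 (8 intervals, the widest 469 bp), and on chromosome 5 from 140127381 to 140129254 (8 intervals, the widest 202 bp). The second of these chromosome 9 groups was nearly continuous, since all 7 gaps were 1 to 57 bp and the intervals covered 88.2% of its 1505 bp. A pair of wide intervals was part of the 8 on chromosome 17 between 30986343 and 30988408 and of the 7 on chromosome 15 between 83567994 and 83569493, and the latter had the highest score of the 12 groups, 1178.13. In the remaining groups, with 8 intervals on chromosome 1 (4247012 to 4248946) and 7 on chromosome 11 (17116800 to 17117715), 2 and 1 of the intervals overlapped replicate 1.

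**Figure D3:**
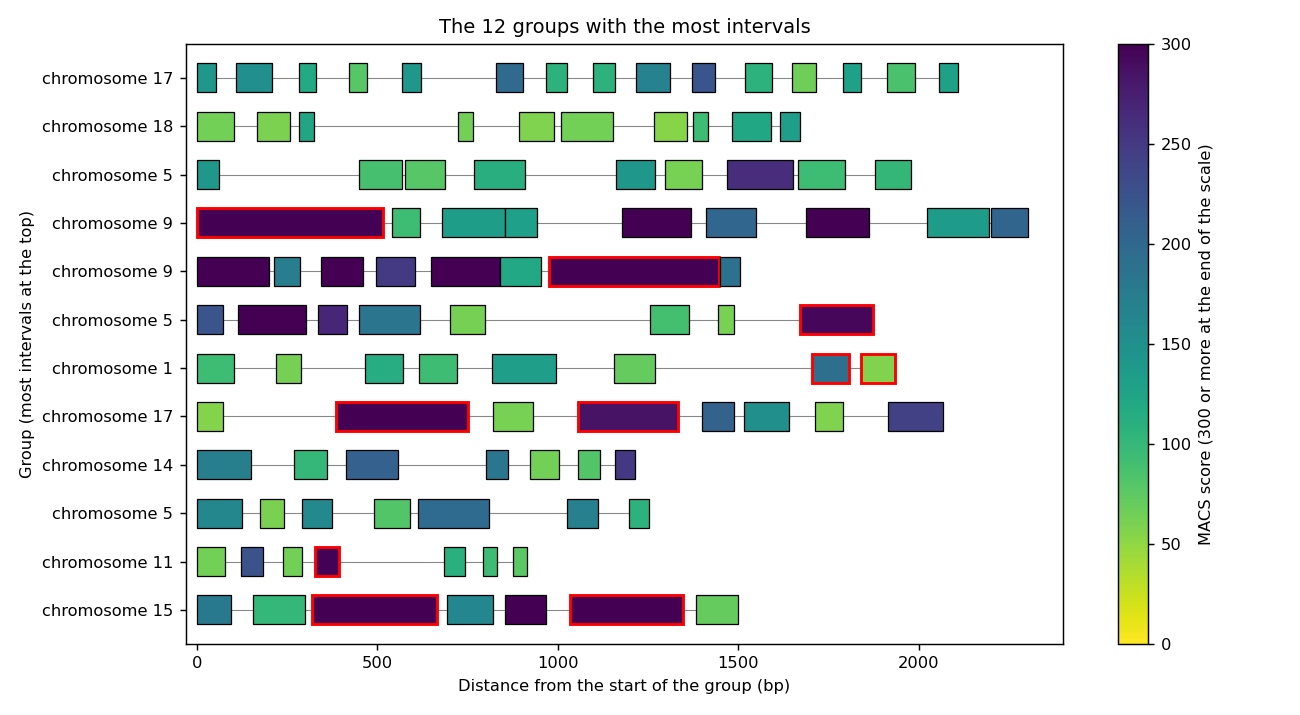
The 12 groups with the most intervals, each drawn to scale from its own start in bp, with colour for the MACS score of each interval. Black outlines mark intervals that met the rule and red outlines those that were wide or overlapped replicate 1; the top group has 15 intervals with 13 of its 14 gaps between 55 and 97 bp.

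Clustered intervals were somewhat wider than solitary ones. Their median width was 66 bp (interquartile range 52 to 96 bp) against 59 bp (50 to 75 bp), and 2455 of them (22.6%) were wider than 100 bp against 10.2% of the solitary and 14.3% of all autosomal intervals. The difference lay at short gaps. Members whose nearest neighbour was under 50 bp away had a median width of 88 bp and 39.99% of them exceeded 100 bp, whereas those with the nearest neighbour at 450 to 500 bp had a median of 57 bp and 10.6% exceeded 100 bp. Read the other way, 8.94% of narrow unshared intervals of 39 to 50 bp were clustered, 12.9% of those of 81 to 100 bp and 25.1% (23.5 to 26.8%) of those of 151 to 200 bp. The rule used width and position, so these values carry no test. The labels' protocol gives the gel-selected library fragments, adapters included, as 250 to 400 bp, and the part of fragment length in widths and gaps was not tested.

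Clustered intervals did not have higher scores than solitary ones. The MACS score, the authors' value for the strength of each call, had a median of 119 (interquartile range 86.0 to 181) in the clustered and of 129 (96.3 to 182.5) in the solitary intervals, so the distributions overlapped over nearly their whole length. Of the clustered intervals 43.9% (42.9 to 44.8%) scored above the solitary median, as did 47.5% of the solitary themselves, since many scores are tied at the median. Low scores were more frequent, with 37.9% of the clustered under 100 against 31.0% of the solitary and 30.6% of all autosomal intervals. A score of 500 or more was found in 180 clustered intervals (1.65%, 1.42 to 1.91%) and in 1.53% of the solitary (1.45 to 1.61%), beside 3.4% of all autosomal intervals, which include the wide ones. For 1000 or more the count was 15 (0.138%), beside 0.103% of the solitary and 0.851% of all autosomal intervals. Scores are discrete: 92.7% of the clustered intervals had a score that another replicate 2 interval also had.

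The lower score was present at each width. In the 6 width classes from 39 to 50 bp up to 151 to 200 bp the clustered median was below the solitary one every time, for example 116 against 129 at 39 to 50 bp, 113.5 against 127 at 81 to 100 bp and 201 against 257 at 151 to 200 bp. It turned when the list was restricted to the 50% of autosomal intervals with the highest score and neighbours were found anew: of the 2634 intervals that then met the rule, 54.2% (52.3 to 56.1%) scored above the median of those without a neighbour. Score did not follow the size of the group, with medians of 119 in pairs and 118 in groups of 3 and of 4, and of 119 in groups of 5 or more. Nor did it follow the gap, since the medians over 10 classes of the nearest gap all lay between 116 and 120. In groups of 3 or more, the 1297 outer members had a median score of 119 and the 849 inner ones of 111, with interquartile ranges of 86.5 to 182.5 and 80.98 to 174.

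**Figure D4:**
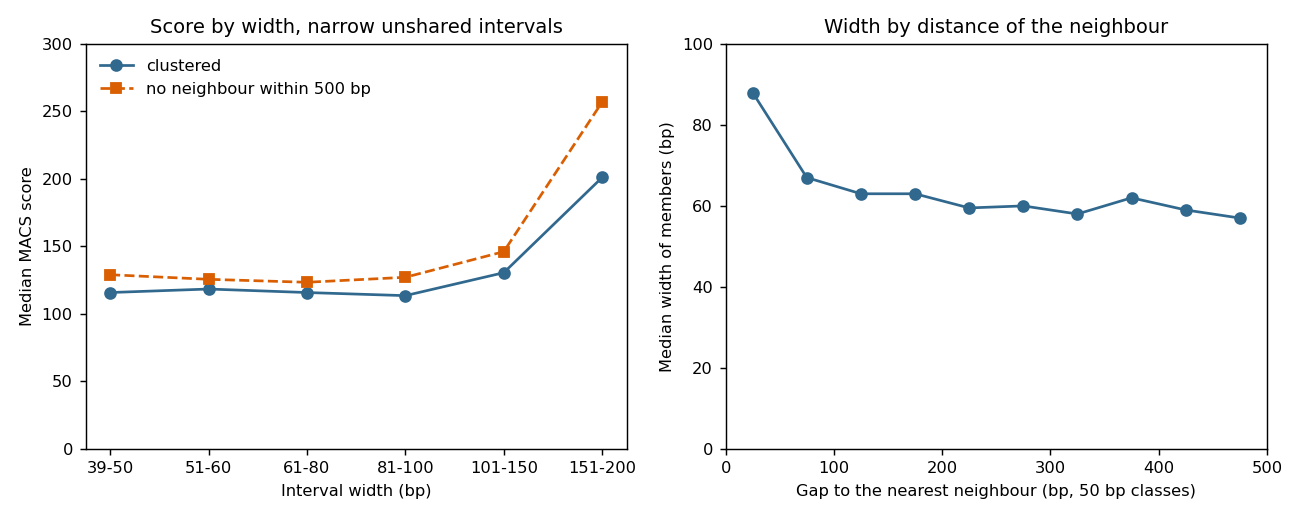
Median MACS score of clustered and solitary narrow intervals of replicate 2 by width (left) and median width in bp of clustered intervals by the gap to their nearest neighbour (right). The clustered medians lie below the solitary ones in all 6 width classes, and members with a neighbour under 50 bp away have a median width of 88 bp.

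The scores of the partners of a pair were at most weakly related. Over the 4122 pairs in which both intervals met the rule, Spearman's rho between the scores of the partners was 0.07. The higher score was a median of 1.62 times the lower. By gap, the rho of scores was 0.05 under 100 bp, 0.14 at 100 to 200 bp and 0.06 at 200 to 500 bp. Over 19076 pairs of adjacent narrow unshared intervals 1000 to 5000 bp apart, rho was 0.01 and the median ratio also 1.62. These pairs come from 1 library, and rho is given as a description. Widths were related a little more over all 4122 pairs, with a rho of 0.17. It was 0.21 over the 1563 pairs with a gap under 100 bp and 0.15 over the 818 pairs at 100 to 200 bp. Over the 1741 pairs with a gap of 200 to 500 bp it was 0.03. Pairs with a gap under 100 bp spanned a median of 210 bp from outer edge to outer edge.

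The 8 clustered intervals with the highest scores had nearest neighbours that scored from 66.4 to 2195.97. The rule for naming them fixed that nearly all of these neighbours scored lower, so their scores are given as values. The highest score, 2195.97, belonged to an interval of 185 bp on chromosome 12 from 90463914 to 90464098, which ranked 195 in the whole list. It was in a group of 3 with an interval of score 197, 40 bp away, and another of score 1484.82 from 90464162 to 90464350, the only case in which 2 of the 8 highest were in 1 group. The interval on chromosome 6 from 125485833 to 125486022 scored 1959.77 and its neighbour, 37 bp away, 369. On chromosome 2 the interval from 162533793 to 162533948 scored 1881.19, with a neighbour of score 86.0 at 489 bp, and on chromosome 18 that from 21889918 to 21890049 scored 1355.29, with a neighbour of score 66.4 at 348 bp. The other 3 lay on chromosome 9 from 19535594 to 19535741 (1279.25), chromosome 14 from 21589026 to 21589223 (1203.83) and chromosome 5 from 58151057 to 58151239 (1195.53), with neighbours of 218, 100.2 and 260 at 59, 48 and 23 bp. The neighbour on chromosome 5 was itself 260 bp wide. All 8 were at least 132 bp wide, against a median of 66 bp over all clustered intervals.

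Some members flanked a wide or shared interval. The nearest neighbour was itself a member for 10217 of the clustered intervals (93.9%), was wider than 200 bp for 566 (5.2%) and overlapped replicate 1 for 141 (1.30%). Any narrow unshared interval less than 500 bp from a member is a member by the rule, so the 93.9% only counts narrow unshared neighbours. Of all 108971 autosomal intervals, 104687 were narrow and unshared, 3211 were wide and 1073 were narrow and shared. No preference for members as neighbours is read from the 93.9%. Members beside a wide interval lay closer to it, at a median of 51.5 bp (interquartile range 26 to 129 bp), than members beside another member, at 127 bp (52 to 292 bp). They were also wider, with a median of 89 bp against 65 bp, while the median score was 119 in both sets. All members with a nearest gap under 50 bp had a median width of 88 bp, so width is not separated from distance here. The wide intervals of the autosomes as a whole had a median score of 559.

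Replicate 1 had almost no calls beside these groups unless a shared interval was part of them. A replicate 1 interval lay less than 500 bp away for 176 clustered intervals (1.62%), none of which overlap one by the rule. Among all autosomal replicate 2 intervals 0.229% had one that near without overlapping it; the intervals that overlap replicate 1 are not in that count, so the shares are not of like sets. Of these, 168 were among the 184 members of groups with a shared interval, where the rule itself places a replicate 1 call nearby. In the groups without one it was 8 of 10700 members (0.0748%, 0.0323 to 0.147%), beside 55 of 93803 solitary intervals (0.0586%, 0.0442 to 0.0763%).

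Clustered intervals were spread over all 19 autosomes in proportion to the calls there, with few exceptions. Their share of a chromosome's replicate 2 intervals was 9.99% overall and between 8.995 and 10.2% on 15 chromosomes. It was highest on chromosome 8 with 739 of 6164 (11.99%, 11.2 to 12.8%), followed by chromosome 17 with 494 of 4295 (11.5%, 10.6 to 12.5%) and chromosome 5 with 791 of 7222 (10.95%, 10.2 to 11.7%). It was lowest on chromosome 6 with 538 of 6620 (8.13%, 7.48 to 8.81%). Chromosome 6 had 45.2 intervals per Mb and chromosome 8 had 47.9, in a range from 40.5 on chromosome 7 to 48.7 on chromosome 9. The part of density in these shares was not tested.

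Within chromosomes, members were more frequent where calls were dense. The 2417 windows of 1 Mb were ranked by their number of replicate 2 intervals and cut into 4 classes of like size. In the 605 windows with the fewest (1 to 34 each) 5.97% of intervals were clustered, in the next classes 7.78% and 9.95%, and in the 604 windows with the most (55 to 111 each) 12.9%. The densest class held 47.6% of the clustered intervals and 36.9% of all autosomal intervals. Dense windows bring neighbours closer in any case, so this order partly follows from the rule. Across all windows, Spearman's rho between the number of members and of other intervals was 0.48, given as a description. No member was found in 473 windows (19.6%), and the most, 28 members in 14 groups, was on chromosome 8 between 121000001 and 122000000.

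The share of clustered intervals was higher toward the high-coordinate end of the chromosomes. Mouse autosomes have their centromere next to the low-coordinate end, so this is the end far from it. Within 10 Mb of the last call, 1467 of 10582 intervals were clustered (13.9%, 13.2 to 14.5%), against 9417 of 98389 elsewhere (9.57%, 9.39 to 9.76%). This stretch held 13.5% of the clustered and 9.71% of all autosomal intervals. The share was higher there on 18 of the 19 chromosomes, by most on chromosomes 4 (18.1% against 9.21%), 16 (17.2% against 8.83%) and 8 (19.4% against 11.1%). Chromosome 7 went the other way, with 6.02% against 9.996%. Within 5 Mb of the low-coordinate end the share was 11.1% (10.1 to 12.1%).

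Calls were also denser near that end, with 55.7 per Mb in the last 10 Mb and 44.3 elsewhere. By class of window density, the shares at the end and elsewhere were 6.23% and 5.96% in the sparsest class and 9.99% and 7.68% in the next. They were 9.63% and 9.97% in the third and 16.3% (15.5 to 17.2%) and 12.1% (11.8 to 12.5%) in the densest. The difference was therefore not seen in every class. The densest class runs from 55 to 111 intervals per window, so density is not matched within it. The end stretch was chosen after its values were seen.

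**Figure D5:**
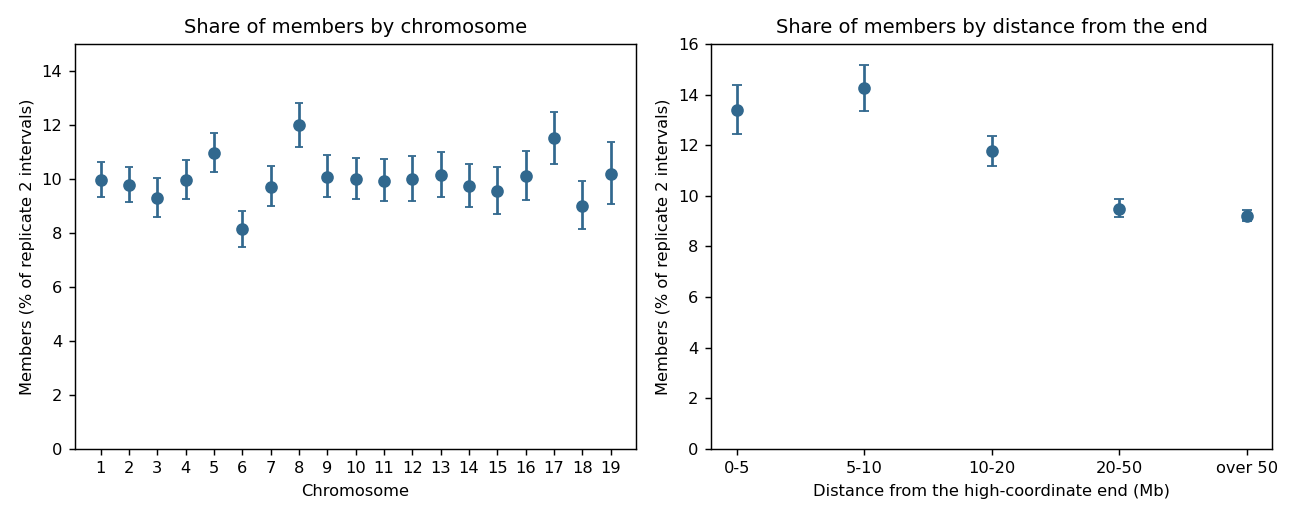
Clustered narrow intervals as a percentage of all replicate 2 intervals, by chromosome (left) and by distance in Mb from the high-coordinate end over the 19 autosomes (right). Points are shares and bars are 95% exact binomial intervals; chromosome 8 is highest at 11.99%, chromosome 6 lowest at 8.13%, and the share falls from 14.2% at 5 to 10 Mb to 9.21% beyond 50 Mb.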

How the data were processed

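One deposited BED list per ChIP sample was used. Its intervals are MACS calls made in Galaxy by the authors, per the file headers, and the deposited score is the MACS score. Not given in the sources used here are its formula, the MACS version and settings, the aligner and how the input entered. Lists were taken as called per sample, and scores were used only within the replicate 2 list. Per the submitters' processing notes, coordinates refer to mm9. The members and lists were chosen with earlier results of these data known.

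Starts were read as counted from 0. Gaps are edge to edge, sharing needs 1 bp, and groups chain all replicate 2 intervals with gaps under 500 bp. Named are the 12 groups with the most intervals (ties by members, then shorter span), the 8 members with the highest score and the intervals at the limits of the rule. No test was run: both lists are single samples. The computation was tested on simulated lists. A planned description of sequence and genes was not run, since no mm9 genome was used. Alternatives changed the distance, width, sharing, score and chaining conditions. Software: pandas 2.3.3, NumPy 2.4.6 and SciPy 1.17.1 under Python 3.11.15, with figures from matplotlib 3.10.9.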

Additional observations from a re-analysis of the deposited data

How the results depend on the processing

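The count of clustered intervals, 10884 in 5323 groups, stayed within 1.5 times under 8 of 10 alternatives. Among these, chaining over members alone keeps the same intervals by construction. It could change only the groups, which became 4793, and the gaps. It became 16510 in 7999 groups with neighbours under 1000 bp, since more gaps are taken in, and 2634 in 1416 groups with the 50% of intervals with the highest score, since fewer intervals are left to be neighbours. The share of gaps under 100 bp, 46.3%, depends on the limit by construction: it was 64.5% with neighbours under 250 bp and 30.85% under 1000 bp. It was 50.5% with midpoints under 500 bp apart, 43.4% with a width of at most 100 bp, 47.8% for the highest-scoring intervals and 43.5% with chaining over members alone; the cause of these was not tested. The share of clustered intervals that scored above the solitary median, 43.9%, was 42.3% with a width of at most 100 bp, 46.8% with any width and 54.2% for the highest-scoring intervals; the cause was not tested. The share in the densest windows, 47.6%, was 42.8% without the last 10 Mb of each chromosome, where 7007 of 10582 intervals lay in such windows. The share of all autosomal intervals in such windows fell too, from 40206 of 108971 (36.9%) to 33199 of 98389. The share of members there kept within its interval under the other 9, including chaining over members alone, which cannot change it. The share in the last 10 Mb, 13.5%, was 12.45% with neighbours under 1000 bp and 14.9% for the highest-scoring intervals; the cause was not tested. That result and the removal of the last 10 Mb were chosen after seeing the data. Without replicate 1, so without the condition on overlap, there were 11005 intervals in 5332 groups, with 46.4% of gaps under 100 bp, 44.3% above the solitary median, 47.5% in the densest windows and 13.4% in the last 10 Mb. Nothing can be computed without replicate 2. No paired analysis was possible because there is only 1 ChIP group and no test. Without read counts, a place missing from replicate 1 cannot be called unbound there.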

Other observations

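Adjacent narrow unshared intervals of replicate 2 were not symmetric along the chromosome. Of the 5501 adjacent pairs less than 500 bp apart, the interval with the lower coordinates was the wider in 53.6% (95% exact binomial interval 52.3 to 55.0%) of the pairs with unequal widths and had the higher score in 52.4% (51.1 to 53.8%) of those with unequal scores. In pairs of clustered intervals with a gap under 100 bp the median width was 80 bp on the low-coordinate side and 69 bp on the other, but the low-coordinate interval had the higher score in only 50.9% (48.4 to 53.5%) of those with unequal scores. At longer gaps the lower-coordinate interval scored higher in 55.2% (53.4 to 57.0%) of 2926 pairs 500 to 1000 bp apart and in 52.6% (51.7 to 53.4%) of 13553 pairs 2000 to 5000 bp apart. Beyond 10000 bp the share was under 50%, for example 48.2% (47.6 to 48.9%) of 25043 pairs 20000 to 50000 bp apart. Most intervals are the upper partner of 1 pair and the lower partner of the next. An excess at some gaps therefore tends to bring a deficit at others, and the shares under 50% are not a separate result. Over the 3419 adjacent autosomal pairs of replicate 1 the lower-coordinate interval scored higher in 50.3% (48.6 to 52.0%) of those with unequal scores. That value pools all gaps and intervals of any width, shared or not. It is therefore not a like measure to the gap classes of replicate 2, and no difference between the lists is read from it. The pairs share intervals and 1 library, the comparison was chosen after its values were seen, and what sets the order was not tested.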
